A study of Mus musculus with 4 samples.

Results

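The replication-dependent histone genes of the mouse were followed in neutrophils from bone marrow. Members were the protein-coding genes of the count table whose symbols begin with Hist1h, Hist2h, Hist3h or Hist4, which gave 67 of 54532 genes. There were 6 H1, 18 H2A, 18 H2B, 12 H3 and 13 H4 genes. The Hist1 cluster on chromosome 13 held 54 of them, the Hist2 cluster on chromosome 3 held 10, the Hist3 cluster on chromosome 11 held 2, and Hist4h4 stood alone on chromosome 6. A threshold of 10 raw counts in 2 or more libraries was reached by 46 genes, namely 5 H1, 10 H2A, 14 H2B, 9 H3 and 8 H4 genes.

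The cells were labelled as neutrophils derived from the bone marrow of wild-type (WT) mice, and RNA sequencing gave 2 libraries from cells given DMSO, a solvent, and 2 from cells given amyloid-beta 40 (Aβ40) at 20 µg/ml for 4 h. Aβ40 is a fragment of the amyloid precursor protein that deposits in vessel walls, and the series concerns its part in the formation of neutrophil extracellular traps, which are webs of chromatin that carry histones. No label ties a library to its own animal or culture, so every p-value rests on the spread between libraries and that spread may be technical. The animals' age and the purity of the cells were not given in the sources used here.

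Replication-dependent histone genes supply the core histones H2A, H2B, H3 and H4, which wrap DNA into nucleosomes, and the linker histone H1, which binds where DNA enters and leaves the nucleosome. Their transcripts carry no introns in the usual case and end in a short stem-loop in place of a poly(A) tail, which the stem-loop binding protein Slbp holds during processing, translation and decay. They accumulate in S phase, when new chromatin is made, and mature neutrophils do not divide, whereas their precursors in the marrow do. Some histone genes can also be transcribed through the stem-loop into a longer, polyadenylated form in cells that have left the cycle.

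The stem-loop is shown first because it defines this kind of transcript. A 16-base pattern (GG, 3 free bases, T, a loop of TNTN, AG, 2 free bases and CC) was searched on the transcript strand of GENCODE M21 coding models, and its outer 6 bases on each side had to pair. It was found in 46 of the 67 members and in 17 of 58725 other coding transcripts (0.0289%). Members were counted as genes, each by any of its coding models, and the others as single transcripts. Each line gives a 26-base site or, where the model ends sooner, a shorter one, with 5 flanking bases in lower case and the stem-loop in capitals. The first pair comes from the most abundant gene and the gene with the smallest p-value. The rest show some of the forms found in the other classes.
Hist1h1c: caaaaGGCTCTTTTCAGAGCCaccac
Hist1h1d: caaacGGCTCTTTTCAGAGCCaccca
Hist1h2ao: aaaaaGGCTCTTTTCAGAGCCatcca
Hist1h2be: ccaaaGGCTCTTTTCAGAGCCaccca
Hist1h3c: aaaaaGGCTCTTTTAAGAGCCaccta
Hist1h3g: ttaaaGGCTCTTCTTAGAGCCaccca
Hist1h4i: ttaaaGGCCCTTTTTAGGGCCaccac
Hist1h4m: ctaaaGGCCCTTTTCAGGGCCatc
Hist1h4j: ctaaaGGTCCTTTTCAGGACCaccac

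The form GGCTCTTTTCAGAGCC was carried by 3 H1, 10 H2A, 8 H2B and 5 H3 models. No H4 model carried it: 7 H4 models had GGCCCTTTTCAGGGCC, 2 had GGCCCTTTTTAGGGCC, 2 had GGTCCTTTTCAGGACC and 1 had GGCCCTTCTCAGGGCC. The stems found in H4 models thus differ in sequence from those found in the other classes; the pairing and the T bases of the loop were required by the search.

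Library totals ranged from 17212264 to 19524125 counts, and 13183 to 13521 genes reached 10 counts in a library. Transcripts of S100a8 and S100a9, abundant neutrophil calcium-binding proteins, averaged 34107 and 36075 CPM with DMSO, where CPM are counts scaled to library size with the TMM correction. Ly6g, the mouse neutrophil surface marker, averaged 281 CPM in the DMSO group and 360 CPM in the Aβ40 group. Over all 13479 tested genes, edgeR's quasi-likelihood test with Benjamini-Hochberg adjustment called 17 genes (0.126%) higher with Aβ40 and 0 lower at an adjusted p under 0.05. Unadjusted p under 0.05 was met by 877 genes higher (6.51%) and 771 lower (5.72%), and DESeq2 called 138 genes, 104 of them higher.

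Histone transcripts were a small share of these libraries and a few genes supplied most of it. The 67 genes together held 5528 and 4474 counts in the DMSO libraries (1 and 2, as throughout) and 6028 and 7020 in the Aβ40 libraries, or 283, 260, 341 and 366 CPM before the TMM correction. Hist1h1c alone supplied 40.8%, 45.5%, 38.6% and 37.1% of those counts in the same order. H1 genes made up 50.4%, 51.9%, 49.7% and 49.6% of summed histone CPM, and the H2B genes, next in amount, 19.9%, 24.2%, 23.5% and 21.7%. The H2A share was 7.67% ± 1.08 (SD, n = 2) with DMSO and 8.95% ± 0.956 (SD, n = 2) with Aβ40, the H3 share 8.01% ± 1.59 and 8.33% ± 0.0693, and the H4 share 11.1% ± 1.40 and 10.5% ± 0.292. The class make-up of the histone RNA was thus alike in the groups: the libraries overlapped in H2A, H2B, H3 and H4, and the H1 share was slightly lower in both Aβ40 libraries.

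Per length, in the deposited FPKM (fragments scaled to gene model length and library size), 3 genes stood above the rest. Hist1h1c, which encodes linker histone H1.2 and lies at chr13:23738808-23740367 (mm10, + strand), had 77.1 and 69.8 FPKM with DMSO and 85.7 and 86.3 with Aβ40. Hist1h2bc, an H2B gene at chr13:23684199-23692908 (+ strand), had 30.1, 27.9, 41.1 and 39.5 FPKM. Hist1h4i, an H4 gene at chr13:22040636-22041362 (− strand), had 29.2, 22.1, 24.4 and 25.5 FPKM. The ranges of Hist1h2bc and Hist1h4i touched, whereas Hist1h1c lay above both in each library. Hist1h1b followed with a mean of 13.2 FPKM over 4 libraries, Hist1h2ao with 10.9, Hist1h3c with 10.8 and Hist1h4m with 9.82. These 4 neighbours overlapped in their ranges. Hist1h1b was the highest of the 4 in each library, narrowly so in DMSO 2 (7.42 against 7.39 FPKM for Hist1h3c). The rest changed order between libraries. Each class thus had at least 1 gene above a mean of 10 FPKM.

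**Figure D1:**
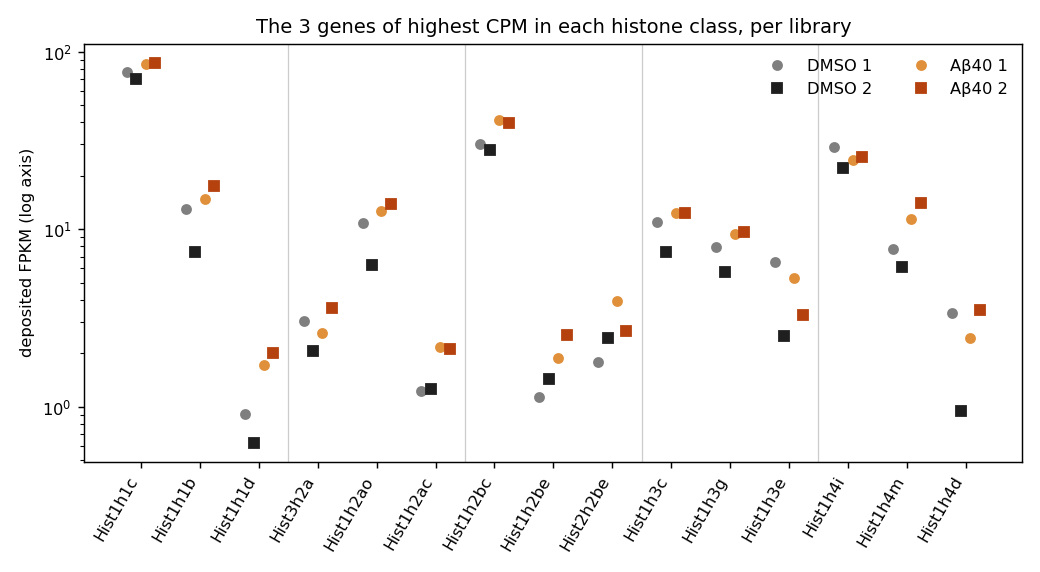
Deposited FPKM (log axis) of the 3 genes with the highest mean CPM in each histone class, 1 point per library, grey and black for DMSO 1 and 2 and light and dark orange for Aβ40 1 and 2. Hist1h1c lies between 69.8 and 86.3 FPKM, Hist1h2bc and Hist1h4i between 22.1 and 41.1, and the point of DMSO 2 is often the lowest of a gene.

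At the other end, 9 members were at 0 in all 4 libraries: Hist1h2aa, Hist1h2ba, Hist1h4b, Hist2h2aa1, Hist2h2aa2, Hist2h2ab, Hist2h2bb, Hist2h3b and Hist2h3c1. A count of 0 allows up to 3 counts, or 0.154 to 0.174 CPM before the TMM correction, and this limit covers counting error only. Hist1h2aa and Hist1h2ba are known as testis-specific. The other 7 share over 50% of their exon bases with another gene model of the annotation, and 5 of them all of their exon bases, whereas 0 of the 58 members with a count did. Overlapping models at these sites had counts themselves in part. Gm20632, which covers Hist2h2aa2 on the opposite strand, had 91, 53, 29 and 83 counts, and Gm20628, opposite Hist2h2bb and Hist2h3b, had 3, 5, 10 and 7. Whether the counting used strand was not given, reads of such pairs cannot be told apart, and the 0 is a statement about the count table.

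The threshold of 10 counts in 2 libraries cut through a continuous range. Just inside were Hist1h2bg with 9 and 9 counts in the DMSO and 21 and 10 in the Aβ40 libraries, and Hist1h2bk with 6, 6, 22 and 10. Just outside were Hist1h4f with 2, 0, 9 and 32 counts and Hist1h4k with 4, 6, 8 and 12. Hist2h3c2 (9, 10, 10 and 2) and Hist1h2af (8, 2, 4 and 9), named after their values were seen, tie by their second-highest count with the genes just inside and with Hist1h4k. At 5 counts 53 genes would be in, at 20 counts 36, and 31 genes had 10 counts in all 4 libraries. The edge genes inside and outside thus differ by a few reads only. Of the 46 genes past the threshold, 44 were tested. Hist1h2bg and Hist1h2bk were not, because the filter of the fit takes library size into account.

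Near-identical copies limit what a single gene's value means. Of the 67 members, 28 had at least 50% of their 100-base windows present in the transcript of another gene, and 7 of these were among the genes at 0. Hist1h2ao shared 92.7% of its windows, Hist1h4m 88.1%, Hist1h4n 80.7%, Hist1h2bq 100% and Hist1h2br 99.8%, so their values are uncertain as single genes. Hist1h1c shared 5.07%, Hist1h1d 0.792% and Hist1h2bc 25.4%. How reads with several matches were counted is not given in the sources used here. The linker histone genes thus rest on reads that are mostly their own, and many core histone genes do not.

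Aβ40 libraries held more histone RNA than DMSO libraries, in amounts for which edgeR's quasi-likelihood test on all 4 libraries called no single gene. Summed over all 67 genes, the level was 296 and 241 CPM with DMSO and 353 and 367 with Aβ40. The groups did not overlap, and the ratio of the means, 360 ± 10.3 to 268 ± 39.4 CPM (SD, n = 2), was 1.34-fold, or 0.42 on the log2 scale. The spread between the DMSO libraries was the larger one: without DMSO 2 the log2 ratio was 0.28, and without DMSO 1 it was 0.58. With 2 libraries against 2, an exact permutation test cannot go below p = 0.333 (2-sided), so no p is given for the sum. Whether cells with these transcripts were more numerous or held more of them cannot be told apart in bulk RNA.

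Of the 44 tested members, edgeR's quasi-likelihood test called 0 in either direction, against 0.126% of all tested genes. The smallest adjusted p was 0.184, for Hist1h1d. Log2 fold changes, given as Aβ40 minus DMSO, were positive for 35 members and negative for 9, and 51.1% of all tested genes were positive. Neither DMSO library reached the Aβ40 libraries in 26 of 44 members (in 23.2% of all tested genes), and the reverse held for 0 members (21.9% of all tested genes). Unadjusted p under 0.05 was met by 11 members, all higher, beside 6.51% of all tested genes, and 11 were at least 2-fold higher, beside 4.48%. The median log2 fold change of the tested members was 0.65, and that of all tested genes 0.013. Within genes under 10 CPM the medians were 0.68 for 41 members and 0.094 for all genes. Within genes of at least 1 CPM they were 0.58 for 33 members and 0.0079 for all genes.

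The filter and 1 library bear on these counts. In all, 6 tested members (Hist1h2ad, Hist1h2ag, Hist1h2ai, Hist1h2bm, Hist1h2bq and Hist1h3f) had under 10 counts in both DMSO libraries and passed the filter through the Aβ40 libraries, so they had to be higher there, and 0 members passed the other way. Over all 58 members with a count, with no filter, the mean was higher with Aβ40 in 47 and lower in 11. DMSO 2 was the lowest library in 29 of the 44 tested members (65.9%) and in 28.9% of all tested genes. The DMSO libraries are therefore not alike in this gene set, and their difference is part of each value below.

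Calls depended on the test and on which group lost a library. DESeq2 called 1 member, Hist1h1d, with an adjusted p of 0.0289, and called 0.772% of all tested genes higher. Without DMSO 1 the edgeR fit called 7 members, of which Hist1h2br was lower with Aβ40, and without DMSO 2 it called 2 (Hist1h1d and Hist1h4n), while the share of all genes called went to 8.93% and 7.16%. Without Aβ40 1 or without Aβ40 2 it called 0, as did limma on log2(FPKM + 1). With 3 libraries the lone sample of a group is assumed to vary like the other group, which leaves 1 pair to estimate the spread.

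**Figure D2:**
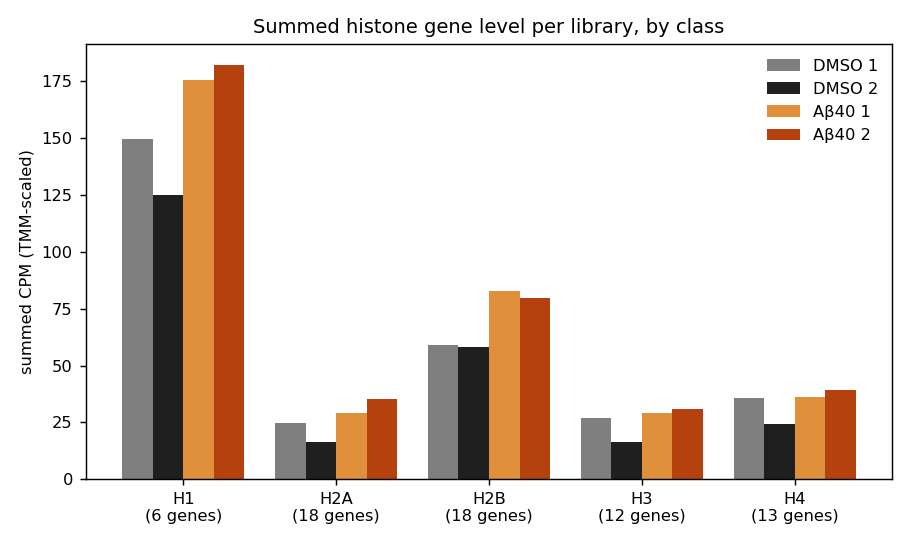
Summed CPM (TMM-scaled) of each histone class in each library, with bars from 0, grey and black for DMSO 1 and 2 and light and dark orange for Aβ40 1 and 2. Both Aβ40 bars are above both DMSO bars in all 5 classes; in H4 the margin to DMSO 1 is narrow (35.8 against 36.3 CPM).

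The linker histones came first in amount. H1 sums were 149 and 125 CPM with DMSO and 175 and 182 with Aβ40, a log2 ratio of 0.38. Hist1h1c was at 121 and 109 CPM with DMSO and 136 and 136 with Aβ40. Its groups did not overlap, but its log2 fold change was only 0.24 ± 0.16 (SE) with an adjusted p of 0.586 in edgeR's quasi-likelihood test. The other H1 genes differed by more: summed without Hist1h1c they had 28.6 and 15.5 CPM with DMSO and 39.3 and 46.0 with Aβ40, a log2 ratio of 0.95 that was 0.58 without DMSO 2 and 1.46 without DMSO 1.

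Hist1h1d, which encodes H1.3, had the smallest p-value of the tested members. Its level was 6.75 and 4.68 CPM with DMSO and 13.04 and 15.01 with Aβ40, with a wide gap between the groups compared with the spread within each. The log2 fold change was 1.29 ± 0.28 (SE, 95% interval 0.66 to 1.92). With edgeR its unadjusted p was 0.00124 and its adjusted p 0.184 over 13479 genes. Without any filter edgeR gave an adjusted p of 0.00319, without DMSO 1 5.08e-05 and without DMSO 2 0.0128, whereas without Aβ40 1 it was 0.997 and without Aβ40 2 0.795. The direction was the same in each of these fits, and the log2 value moved between 1.04 and 1.58.

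The gene model behind Hist1h1d is long. In the count table it spans chr13:23553262-23560686 (+ strand) with 7425 exon bases, and the stem-loop is followed by 4884 annotated bases. RefSeq places the same gene, as H1f3, at chr13:23555032-23555807, which is 776 bases. Hist1h1d and Hist1h1b had nearly the same mean, 9.87 and 9.90 CPM, but 1.31 and 13.2 FPKM, since the model of Hist1h1b has 743 bases. Levels per length therefore depend on which ends the annotation gives a histone gene, and the count of Hist1h1d takes in reads from the whole long model.

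Hist1h1b, encoding H1.5, was at 9.70, 5.54, 11.2 and 13.2 CPM (DMSO 1 and 2, then Aβ40 1 and 2), with a log2 fold change of 0.68 ± 0.31 (SE). Hist1h1a, encoding H1.1, was at 4.395, 1.34, 6.26 and 5.96 CPM, and Hist1h1e, encoding H1.4, at 7.77, 3.60, 8.83 and 11.8. All 5 tested H1 genes had both Aβ40 libraries above both DMSO libraries (23.2% of all tested genes). In all 5 DMSO 2 was the lowest (28.9% of all tested genes). Adjusted p was 0.423 for Hist1h1b and Hist1h1a and 0.406 for Hist1h1e. Hist1h1e shares 496 exon bases with Hist1h2be on the same strand, so these 2 genes are not fully separate in the counts. The testis linker histone Hist1h1t had 6 counts in DMSO 2 and 0 in the other libraries.

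H2A genes summed to 25.0 and 16.6 CPM with DMSO and 29.2 and 35.4 with Aβ40, a log2 ratio of 0.63 that was 0.37 without DMSO 2 and 0.96 without DMSO 1. Hist3h2a was at 6.54, 4.41, 5.67 and 7.85 CPM and its groups overlapped. Hist1h2ao was at 5.20, 3.01, 6.14 and 6.75, and Hist1h2ac at 3.06, 3.12, 5.44 and 5.33. The pairs of Hist1h2ac were close, with an SD of 0.0448 CPM with DMSO and 0.0743 with Aβ40, each from 2 libraries only. Its log2 fold change was 0.80 ± 0.33 (SE) with an adjusted p of 0.388 in edgeR's quasi-likelihood test. The highest fitted fold change of the tested H2A genes was that of Hist1h2ab, with 0.59 and 0.054 CPM against 1.81 and 1.73, and a log2 fold change of 2.43 with a 95% interval of 0.44 to 4.43. Hist1h2ab had 11 and 1 counts in the DMSO libraries, so its fold change rests on few reads: the log2 value was 4.87 without DMSO 1, where it was called, and 1.56 without DMSO 2. The lowest tested was Hist1h2ae with 4.13, 1.99, 2.98 and 3.03 CPM, where DMSO 1 was the highest and DMSO 2 the lowest library.

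Hist3h2a shares 708 exon bases with Trim17 on the same strand, and the models of most H2A genes of the Hist1 cluster carry a short predicted gene on the opposite strand. Of 10 tested H2A genes 9 had positive log2 fold changes (51.1% of all tested genes). In 7 the groups did not overlap, with Aβ40 higher (23.2% of all tested genes). Among these 7 are Hist1h2ad, Hist1h2ag and Hist1h2ai, which passed the filter through the Aβ40 libraries. Of the 18 H2A genes 4 were at 0 in all libraries.

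H2B genes summed to 59.1 and 58.2 CPM with DMSO and 82.7 and 79.7 with Aβ40, a log2 ratio of 0.47. This was the one class in which the sums of the DMSO libraries agreed, with an SD of 0.591 CPM. Single genes differed in both directions, with DMSO 2 below DMSO 1 in 6 of the 12 tested. Hist1h2bj was at 6.27 and 2.31 CPM in DMSO 1 and 2, and Hist1h2br at 1.13 and 3.71. Hist1h2bc supplied most of the H2B sum, at 34.9 and 32.4 CPM with DMSO and 48.3 and 46.2 with Aβ40. Its log2 fold change was 0.49 ± 0.18 (SE) with an adjusted p of 0.351 in edgeR. Hist1h2be was at 5.09, 6.40, 8.48 and 11.4 CPM (log2 0.79 ± 0.29), and Hist2h2be at 4.72, 6.45, 10.5 and 7.06 (log2 0.65 ± 0.32). In all 3 genes the Aβ40 libraries lay above the DMSO libraries, and in Hist1h2be and Hist2h2be DMSO 2 was not the lower control.

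The extremes of the tested H2B genes were a pair of near copies. Hist1h2bq had 8 and 6 counts with DMSO and 21 and 21 with Aβ40 (log2 1.61 ± 0.72). Hist1h2br had 21, 69, 30 and 6 counts (log2 -1.24 ± 0.83), with its highest value in DMSO 2 and its lowest in Aβ40 2. Since 100-base windows of both are almost all found in other genes, their opposite signs cannot be assigned to separate loci. Of 12 tested H2B genes 8 were positive and 4 negative.

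H3 genes summed to 27.1 and 16.6 CPM with DMSO and 29.2 and 30.8 with Aβ40, a log2 ratio of 0.46 that was 0.15 without DMSO 2 and 0.86 without DMSO 1. Hist1h3c was at 6.97, 4.68, 7.90 and 7.85 CPM, Hist1h3g at 4.24, 3.07, 5.03 and 5.18, and Hist1h3e at 5.47, 2.10, 4.50 and 2.77. Groups did not overlap in Hist1h3c and Hist1h3g, whose log2 fold changes were 0.43 ± 0.30 and 0.48 ± 0.34 (SE), and overlapped in Hist1h3e. Hist1h3f had the highest fitted fold change of the 44 tested members, with 7 and 2 counts against 20 and 31, a log2 value of 2.50 with a 95% interval of 0.63 to 4.37 and an adjusted p of 0.334. It is one of the genes that passed the filter through the Aβ40 libraries, and its log2 value was 1.87 without DMSO 2 and 3.62 without DMSO 1, where Hist1h2ab ranked above it. Hist2h3c2 had the lowest among tested genes of the class, -0.58 ± 0.97 (SE), on 31 counts in all.

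H4 genes summed to 35.8 and 24.3 CPM with DMSO and 36.3 and 39.3 with Aβ40, a log2 ratio of 0.33. Here DMSO 1 was close to Aβ40 1, and the log2 ratio was 0.079 without DMSO 2 and 0.64 without DMSO 1. Hist1h4i, the largest part of each of these sums, was at 21.3 and 16.1 CPM with DMSO and 18.0 and 18.7 with Aβ40. Its log2 fold change was -0.026 with a 95% interval of -0.54 to 0.49. Hist1h4m was at 3.11, 2.47, 4.68 and 5.70 CPM (log2 0.89 ± 0.36), and Hist1h4d at 3.86, 1.08, 2.81 and 4.03 with overlapping groups.

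Hist1h4n, at chr13:21831767-21832196 (− strand), had the highest fitted fold change of the tested H4 genes. It was at 0.80 and 1.29 CPM with DMSO and 3.22 and 3.45 with Aβ40, a log2 fold change of 1.66 ± 0.49 (SE) with an adjusted p of 0.298, and 0.05 was passed only where DMSO 2 was left out or the replicate numbers were crossed as a block. DMSO 2 was the higher control here. Hist1h4h had the lowest among tested genes, with 3.38, 1.08, 2.34 and 1.26 CPM and a log2 fold change of -0.31 ± 0.63 (SE).

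**Figure D3:**
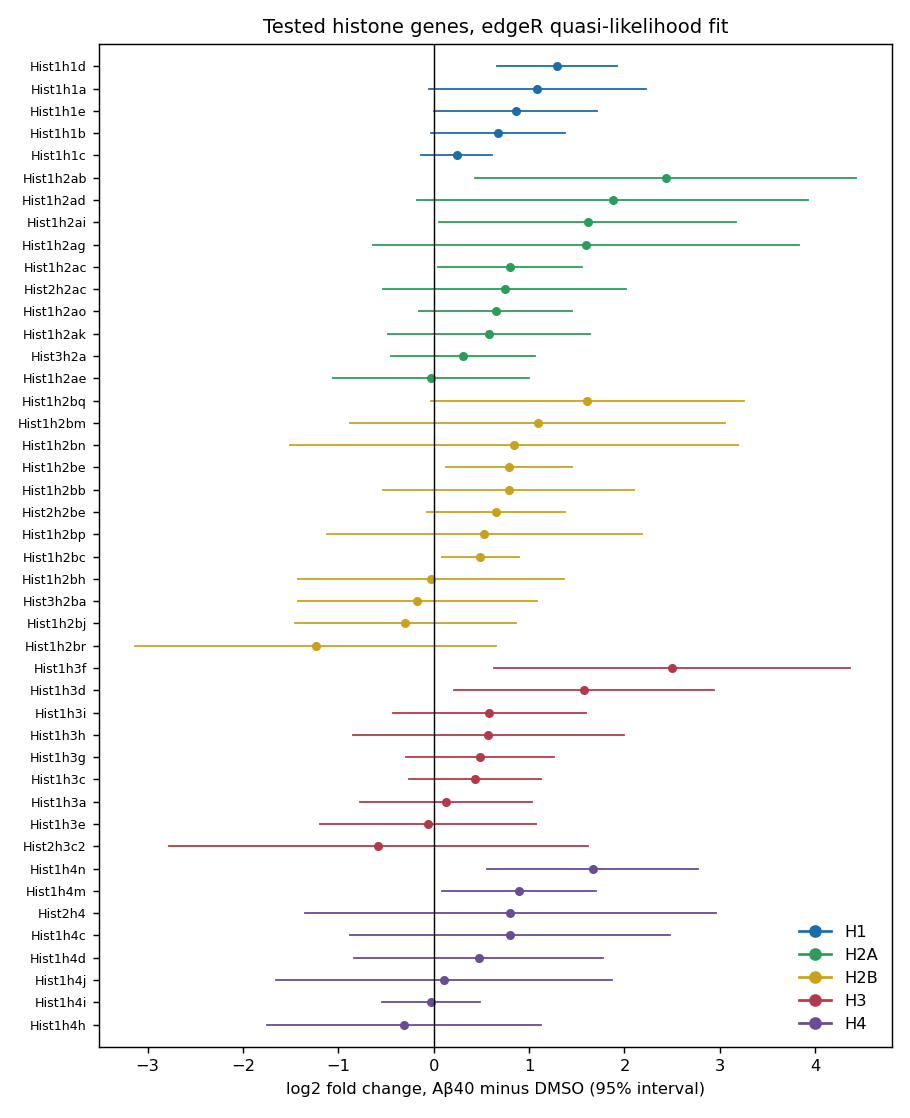
Log2 fold change (Aβ40 minus DMSO) of the 44 tested histone genes from the edgeR fit, with 95% intervals, grouped and coloured by class and sorted within it. Points lie right of 0 for 35 genes and left for 9; the intervals are widest for genes with few counts, such as Hist1h2ab, Hist1h3f and Hist2h3c2.

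The annotated 3′ end was compared with the values, because transcripts that end at the stem-loop and transcripts that run on have different chemistry. In 23 members the model ended within 100 bases after the stem-loop, in 23 it ran on for longer, and in 21 the model held no stem-loop. Several of these 21 models are shorter than the RefSeq gene, such as Hist1h2ak with 393 against 536 bases and Hist1h3h with 411 against 488. A model with no stem-loop is thus a statement about the annotation and not about the transcript. The libraries were made from total RNA with an Illumina kit, and the labels do not say whether poly(A) RNA was selected. Models that ran on held 61.4% to 66.7% of summed histone CPM in each library, and models that ended near the stem-loop 10.1% to 13.2%. CPM are not scaled to length, and Hist1h1c, whose model ran on, alone held 37.1% to 45.5%. Per length the 2 sets were alike, with a median of 1.47 FPKM where models ran on and 1.46 where they ended near the stem-loop. Hist1h1c had 840 annotated bases after its stem-loop and Hist1h4i 330, and the model of Hist1h2bc, which has 1156 exon bases spread over a longer span, had no stem-loop. The 3 most abundant genes per length were therefore all genes whose models do not stop at the stem-loop.

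Fold changes were set out by the same division. Models ending within 100 bases summed to 31.2 ± 9.72 CPM with DMSO and 47.2 ± 1.81 with Aβ40 (SD, n = 2; log2 ratio 0.60), those running on to 177 ± 23.3 and 223 ± 9.41 (0.34), and those with none to 60.4 ± 6.40 and 89.4 ± 0.932 (0.57). Median log2 fold changes were 0.74 over 15 tested genes, 0.39 over 18 and 0.65 over 11. Groups of libraries did not overlap, with Aβ40 higher, in 11, 8 and 7 of these, beside 23.2% of all tested genes. Each of these counts takes in genes that passed the filter through the Aβ40 libraries and so had to be higher there. The sets differ in class and in shared sequence too, and the difference between them was not tested.

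**Figure D4:**
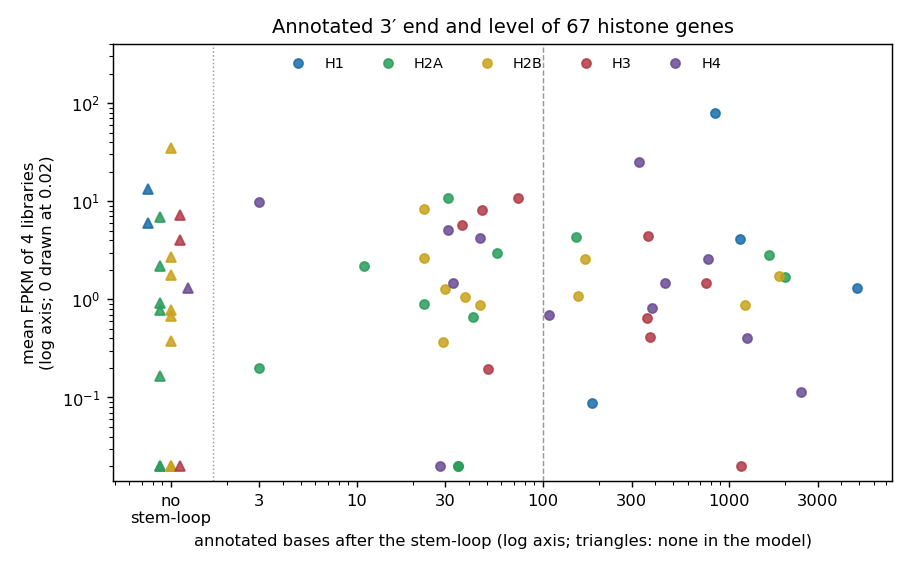
Mean deposited FPKM of the 4 libraries (log axis, with genes at 0 drawn at 0.02) against the number of annotated bases after the stem-loop (log axis) for 67 histone genes, coloured by class, with a dashed line at 100 bases and triangles for the 21 models with no stem-loop. The highest points, at 79.7, 34.6 and 25.3 FPKM, belong to models that run on or hold no stem-loop.

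Many H2A and H2B genes lie head to head and share the sequence between them. There were 12 such pairs with 175 to 305 bases between the starts. H2A had more counts in 5 pairs, H2B in 6, and 1 pair was at 0. Hist1h2ac and Hist1h2bc start 250 bases apart, yet their mean levels were 1.69 and 34.6 FPKM, a 20.5-fold gap, in part set by an annotated Hist1h2ac model of 2482 bases; their counts were 310 and 2963. In the opposite sense, Hist1h2ao had 387 counts and its partner Hist1h2bq 56. Of 5 pairs with both genes tested, 4 had log2 fold changes of the same sign, among them 0.80 and 0.49 for Hist1h2ac and Hist1h2bc and 0.74 and 0.65 for Hist2h2ac and Hist2h2be. Hist1h2ag (1.59) and Hist1h2bj (-0.30) had opposite signs.

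Promoters were taken from RefSeq (GRCm38.p6), 250 bases before to 50 after each start, and 62 of the 67 members had one. CCAAT, searched on both strands like the other motifs, was in 53 of 62 (85.5%) and in 37.4% of 32851 promoters of the same length. It was in every H1, H2A, H2B and H3 promoter and in 3 of 12 H4 promoters. TATAAA was in 56.5% of the members and 13.6% of all promoters. The octamer ATTTGCAT was in 7 of 18 H2A and 6 of 16 H2B promoters, in none of the H1, H3 and H4 promoters, and in 1.74% of all promoters. AAACACA, known from linker histone promoters, was in 5 of 6 H1 promoters, 2 H2A and 2 H2B promoters and 7.18% of all. Matches of different motifs can share a few bases. The windows of head-to-head H2A and H2B partners overlap, so 1 site can be counted for both genes. The H2A and H2B counts are therefore not independent. A match is a string of letters and not a bound site.

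The promoters of 2 genes are printed, 1 linker histone gene with the smallest p-value and 1 shared by an H2A and H2B pair, with these motifs and their reverse complements in capitals. The first lies at chr13:23554782-23555081 (+ strand) and the second at chr13:23683910-23684209 (− strand), where the far end reaches the start of Hist1h2bc.
Hist1h1d promoter: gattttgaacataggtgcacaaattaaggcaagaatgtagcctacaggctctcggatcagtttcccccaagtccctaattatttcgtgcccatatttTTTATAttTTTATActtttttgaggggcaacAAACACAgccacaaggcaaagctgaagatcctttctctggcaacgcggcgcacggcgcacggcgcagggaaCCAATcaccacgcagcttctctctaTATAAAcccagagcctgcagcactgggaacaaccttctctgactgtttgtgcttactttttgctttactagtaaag
Hist1h2ac promoter: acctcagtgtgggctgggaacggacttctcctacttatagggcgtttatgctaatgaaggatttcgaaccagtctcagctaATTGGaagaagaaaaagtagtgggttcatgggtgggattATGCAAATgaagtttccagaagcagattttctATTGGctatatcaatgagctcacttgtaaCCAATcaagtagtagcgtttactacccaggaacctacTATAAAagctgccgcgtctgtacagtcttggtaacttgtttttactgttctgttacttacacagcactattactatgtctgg
The Hist1h1d window holds 2 TATAAA matches on the other strand farthest from the start. Nearer to the start are AAACACA, then CCAAT and last TATAAA on the strand of the gene. The Hist1h2ac window holds 3 CCAAT matches, of which 2 are on the other strand, and 1 octamer on the other strand. In the count table the Hist1h1d window falls inside the long gene model.

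Other genes of histone RNA metabolism were read as lists from the same fit. Over all tested genes, 6.51% were higher and 5.72% lower at an unadjusted p under 0.05 in edgeR's test. Of 26 genes for histone mRNA 3′ processing and decay, 0 were called by edgeR (1 higher and 2 lower at an unadjusted p under 0.05), and the median log2 fold change was 0.11. Slbp was at 226, 159, 242 and 224 CPM (log2 0.28 ± 0.21), with DMSO 2 the lowest, and Casp8ap2, a component needed for histone 3′ processing, was at 35.1, 26.2, 39.95 and 32.6. Of 19 genes for transcription in the histone locus body, 0 were called (1 higher and 3 lower at that unadjusted p), and the median was -0.18. Npat, the coactivator that switches histone genes on in S phase, was at 15.4, 23.1, 24.6 and 16.1 CPM, with the groups fully mixed. Pou2af1, a B cell coactivator of octamer factors, had the highest value of that list, 1.39 ± 0.25 (SE), with an adjusted p of 0.104.

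Replication-independent variants, which in the usual case are transcribed outside S phase into polyadenylated RNA, were more abundant in these libraries than the members. The labels do not say whether poly(A) RNA was selected, and such a step would bear on this comparison. The 12 tested of 16 variant genes summed to 3710, 2868, 3662 and 3739 CPM, and H1fnt, H1foo, H2afb1 and H2afy3 were at 0. Their median log2 fold change was -0.011, with 6 positive and 6 negative, 0 called and 1 in each direction at an unadjusted p under 0.05. H3f3a, encoding H3.3, was at 328 and 315 CPM with DMSO and 495 and 433 with Aβ40 (log2 0.53 ± 0.18, adjusted p 0.334), and H2afx, encoding H2A.X of the DNA damage response, at 178 and 126 against 83.9 and 122 (log2 -0.56 ± 0.24, adjusted p 0.396). H3f3b and H2afz had log2 fold changes of 0.23 ± 0.21 and 0.18 ± 0.21, and H1f0, the linker histone of resting cells, 0.27 ± 0.17. Of 24 histone chaperone genes 0 were called (2 higher at an unadjusted p under 0.05), with 12 positive and 12 negative and a median of 0.0062.

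Genes of the cell cycle were read in the same libraries. Of 48 genes for DNA replication and S phase, 37 were positive (51.1% of all tested genes) and 0 were called by edgeR (0.126%). At an unadjusted p under 0.05, 10 were higher and 0 lower, beside 6.51% and 5.72% of all tested genes. Groups did not overlap in 22 with Aβ40 higher and in 3 with Aβ40 lower (23.2% and 21.9% of all tested genes). DMSO 2 was the lowest library in 25 of the 48 (28.9% of all tested genes). The median log2 fold change of the 48 was 0.18. Pcna, the sliding clamp, was at 563, 352, 653 and 588 CPM. Of 30 genes for G2 and mitosis 18 were positive, 0 were called (2 higher and 4 lower at the unadjusted p), and the median was 0.081, and Mki67 was at 556, 426, 508 and 518 CPM. Transcripts of proliferation genes were thus present in all 4 libraries. The median of the S phase genes was positive like that of the histone genes and smaller (0.18 against 0.65), and the difference between them was not tested.

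Markers of other marrow cells differed between the groups too. Over all tested genes, 51.1% were positive and edgeR called 0.126% higher. All 20 B lineage markers were positive and 7 were called higher. Cd79a, with a log2 fold change of 1.71 ± 0.19 (SE) and an adjusted p of 0.0282, and Vpreb1, with 2.03 ± 0.26 and 0.0341, were among the 7. The summed level of the 20 markers was 1539 and 1400 CPM in DMSO 1 and 2, and 2336 and 2453 CPM in Aβ40 1 and 2. None of the 20 was at 0 in all libraries. All 10 eosinophil markers (sums of 1687 and 1405 against 3684 and 3742 CPM) and all 16 tested T and NK cell markers (104 and 97.8 against 160 and 171 CPM) were positive too, each with 1 called. Granulocyte precursor markers, which mark the dividing stages of the neutrophil line, had a median of 0.023 over 12 genes with 0 called and sums of 8925 and 9406 against 11265 and 9719 CPM, and Elane averaged 1152 CPM in the DMSO and 1127 CPM in the Aβ40 libraries. The 15 neutrophil markers had a median of 0.072 with 0 called. Erythroid markers had a median of 0.19 and summed to 5285, 2336, 3807 and 3900 CPM, and neutrophil markers to 144114, 103225, 148797 and 141018. DMSO 2 had the lowest sum in these lists and in the B lineage, eosinophil, T and NK, monocyte and dendritic, and basophil and mast cell lists, as it did for the histone genes. Medians were 0.34 for monocyte and dendritic, 0.65 for basophil and mast cell and -0.15 for megakaryocyte markers, with 0 called in each. At an unadjusted p under 0.05 in edgeR's test, 5 of 8 basophil and mast cell markers were higher and 0 lower. For monocyte and dendritic markers 3 of 15 were higher and 0 lower, beside 6.51% higher and 5.72% lower of all tested genes. The part of these cells in the histone values was not tested.

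**Figure D5:**
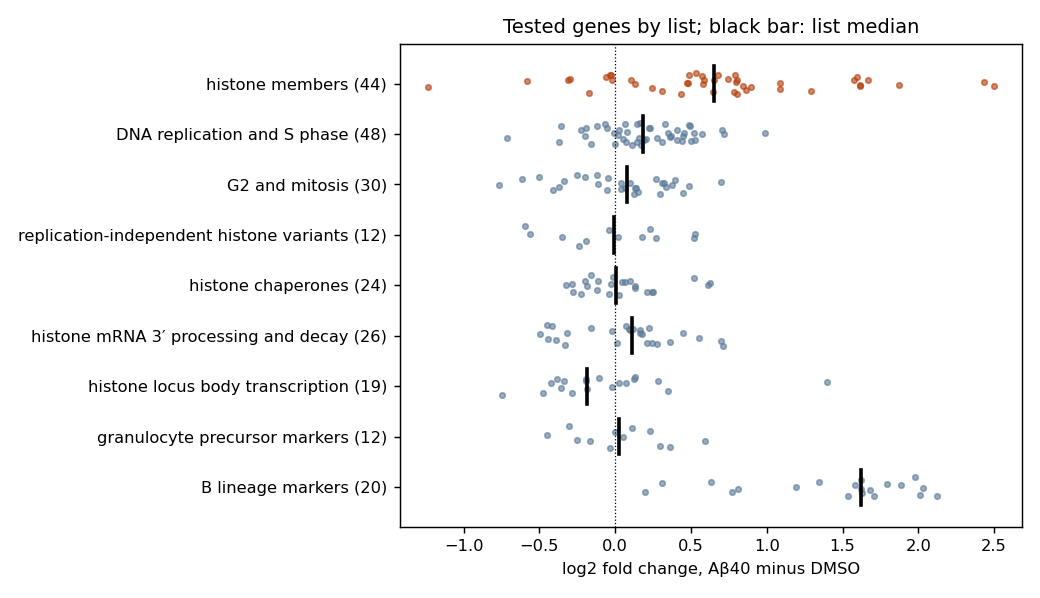
Log2 fold change (Aβ40 minus DMSO) of each tested gene in 9 gene sets, with the number tested in brackets and a black bar at the median. The histone genes have their median at 0.65, the S phase genes at 0.18, granulocyte precursor markers at 0.023 and B lineage markers at 1.62.

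For Padi4, the peptidylarginine deiminase that citrullinates histones in trap formation, levels were 189 and 331 CPM with DMSO and 199 and 182 with Aβ40, a log2 fold change of -0.45 ± 0.26 (SE) with an adjusted p of 0.508. DMSO 2 was the high library and the other 3 were alike. DMSO 2, the lowest library for 29 of the 44 tested histone genes, was thus the highest for Padi4.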

How the data were processed

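The 4 libraries were made from column-purified total RNA, per the labels' protocols. Tools listed in the submitters' processing notes are featureCounts 1.5.0-p3 and HISAT2 2.0.5, with mm10 as the build and no role given; strandedness is not given in the sources used here. The authors deposited raw counts per gene and FPKM, both with gene model lengths, which equal those of GENCODE M21 for all 67 members. Deposited counts were analysed with edgeR 4.0.16 in R 4.3.3 (filterByExpr, 13479 genes; TMM; glmQLFit and glmQLFTest on group; Benjamini-Hochberg over all tested genes, called under 0.05). There were 2 residual degrees of freedom. CPM are TMM-scaled, and sums take in all members. Deposited FPKM gave levels per length. Alternatives used DESeq2 1.42.0, limma 3.58.1, other scalings and filters, a replicate block and leaving out each library. Fits were tested on simulated data.

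The members and gene lists were chosen with earlier results of these data known. Named genes were, per class, the 3 of highest mean CPM and the highest and lowest log2 fold change, the genes at the count threshold, the 2 most abundant or the called genes per list, and some fixed by name. Others (Hist1h1a, Hist1h1e, Hist1h1t, Hist1h2af, Pou2af1, Ly6g, pair partners, overlapping and zero-count genes) were named after their values were seen.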

Additional observations from a re-analysis of the deposited data

How the results depend on the processing

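The median log2 fold change of the tested histone genes stayed positive under each alternative run, between 0.46 and 0.84. With 2 libraries a group, calls were unstable. Genes called over all genes went from 17 to 138 with DESeq2, 255 with no filter, 27 with the replicate block and 721 with crossed replicate numbers as a block, 0 with limma on log2(FPKM + 1) or log2(FPKM + 0.1), and 0 to 1276 when 1 library was left out (without DMSO 2 1024). Histone genes called went from 0 to 1 with DESeq2, 1 with no filter, 5 with the crossed block, and 0 to 7 when 1 library was left out; the replicate block called 0 and changed no member's call. Deviations of same-numbered libraries correlated at -0.187 over all genes and -0.0422 over the members, which is no sign of pairing by replicate number. With 2 libraries a group and no label of animal or culture, such a pairing is neither shown nor excluded. The crossed block was added after seeing the data. The summed log2 ratio of 0.42 was 0.68 without the most abundant member of each class, and 0.28 to 0.58 when 1 library was left out. Signs turned where the value was near 0 or 1 library decided it. Hist1h2ae went from -0.024 to 0.046 with the crossed block, 0.058 with the replicate block, 0.0046 with upper-quartile scaling, and 0.030 and 0.053 with limma on log2(FPKM + 1) and log2(FPKM + 0.1). Hist1h3e went from -0.059 to 0.029, 0.046, 0.018 and 0.043 under the crossed block, the replicate block and both limma fits. Values with 1 library left out were read for the members named per class by CPM or fold change, and other members may turn too. Among those named, the ranges that crossed 0 were -0.47 to 0.59 for Hist1h2ae and -0.60 to 0.79 for Hist1h3e (0.23 without Aβ40 2). They were -0.93 to 0.73 for Hist1h4h (0.051 without Aβ40 2), -0.22 to 0.19 for Hist1h4i, -0.18 to 1.66 for Hist1h4d and -2.22 to 0.18 for Hist2h3c2. The median of the G2 and mitosis genes went from -0.0089 to 0.13 when 1 library was left out. The cause was not tested. One limit is depth: a single count was worth 0.0512 to 0.0581 CPM before the TMM correction. Of 67 members 23 were not tested, 9 of them at 0 in all libraries.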
